A study of Rattus norvegicus with 21 samples.

Results

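The WNT ligands, receptors and antagonists of the rat pituitary array are described here, a family of 45 genes. They were taken by name from the platform annotation: every probe set with a single gene symbol that was Wnt plus a number, began with Fzd, Sfrp, Dkk or Rspo, or was Wif1, Axin2, Lef1, Tcf7, Lrp5, Lrp6, Ror1 or Ror2. Each member had exactly 1 probe set, so the 45 genes were read from 45 of the 29214 probe sets of the array, of which 15310 carried a single symbol. The family held 17 ligands, 8 Frizzled receptors, 4 co-receptors and ROR receptors, 10 secreted antagonists, 3 R-spondins, and 3 genes inside the cell (Axin2, Lef1 and Tcf7). Dkkl1, a Dickkopf-like protein best known from testis, was among the antagonists only because its symbol begins with Dkk.

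The adenomas were 16 pituitary lesions from MENX rats homozygous for the p27Kip1 (Cdknb1) mutation, a spontaneous germline change that leaves the cell cycle inhibitor p27 unstable in every tissue. They were set against 5 normal pituitaries of wildtype rats. Both groups had the same strain label, Sprague–Dawley white eye/Wistar–Kyoto. Lesions that carried the same sample number were averaged, which left 9 adenoma numbers (6 female and 3 male, 7 to 12 months old) and 5 wild-type pituitaries (2 female and 3 male, all 6 months old). The ages and the count of numbers are those of the labels. The study's text describes more adenoma-bearing rats and a narrower range of ages, younger than most of those labelled. The n of 9 and every result by age therefore rest on the labels. Since no wild-type rat was as old as any adenoma-bearing rat, genotype and age cannot be told apart. The adenomas were dissected from a gland of many cell types and compared with the normal gland, and in such bulk tissue fewer cells of a type and less RNA per cell cannot be told apart.

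WNT ligands are lipid-modified secreted proteins that bind Frizzled receptors together with the co-receptors LRP5 or LRP6, which stops the destruction of beta-catenin and lets it act with TCF and LEF factors on target genes such as Axin2. Other WNT signals act without beta-catenin, through Frizzled, ROR and RYK receptors, on cell polarity and calcium. Secreted antagonists either capture the ligand (SFRP and WIF1) or block the co-receptor (DKK), R-spondins keep receptors on the surface, and in mouse embryos WNT5A and beta-catenin take part in forming the pituitary.

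Axin2 is the family's usual readout of beta-catenin, and it was the called member with a TCF/LEF motif in its promoter window, so that window is shown. The window is chr10:94398535-94398784 of GRCr8, plus strand, from RefSeq, and covers the 250 bases before the start of the gene. The capitals mark CTTTGAT, the reverse complement of the motif ATCAAAG, beginning 132 bases before the start.
Axin2 promoter: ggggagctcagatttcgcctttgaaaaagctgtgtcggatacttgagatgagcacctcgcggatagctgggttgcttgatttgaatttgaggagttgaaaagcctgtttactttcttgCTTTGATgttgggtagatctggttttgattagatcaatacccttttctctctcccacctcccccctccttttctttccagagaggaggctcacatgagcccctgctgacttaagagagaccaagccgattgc
Both strands were searched for ATCAAAG over 300 bases per gene, 250 before and 50 after the start. The motif was in 3.63% of all 33469 windows. Windows were at hand for 31 of the 45 members, including 8 of the 13 called ones, and 3 of these 31 (9.68%) held the motif, namely Axin2, Dkkl1 and Tcf7. A match describes the letters of the window and is not a measured binding site.

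Values are log2 RMA signals, so that a difference of 1 is a 2-fold change, and a gene was called at an adjusted p under 0.05 from limma over all probe sets. Array medians lay between 6.36 and 6.53. Cdkn1b itself (10859254), measured as mRNA, averaged 9.23 ± 0.17 in the adenomas and 8.91 ± 0.19 in wild-type pituitaries (SD, n = 9 and 5, adjusted p = 0.0324, limma). The lesion labelled replicate 05, of adenoma number 3, stood apart, with a mean correlation of 0.972 with the other lesions, where the remaining 15 lay between 0.979 and 0.985.

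Of the 45 members, 3 were called higher in the adenomas (Fzd4, Fzd8 and Wnt4) and 10 lower (Fzd6, Sfrp1, Wnt5a, Fzd5, Lrp6, Ror2, Axin2, Fzd2, Wnt3 and Dkk2), while 32 did not pass the test. Thus 6.67% of the members were called higher, against 8.49% of all probe sets, and 22.2% lower, against 9.06% of all probe sets (12% and 9.63% of the probe sets with a single symbol). In either direction 28.9% of members and 17.5% of all probe sets were called. The median log2 difference was -0.07 over the members and -0.03 over all probe sets, with 31 members below 0 and 14 above. Lower members made up 76.9% of the members called, where lower probe sets made up 51.6% of all those called. The members' share was 66.7% with arrays centred on their medians (3 higher, 6 lower) or quantile-normalized once more (4 higher, 8 lower). Of all probe sets 9.3% were higher and 6.89% lower with centring, and 8.4% and 8.78% after the second quantile normalization. Every change was small: no member passed both an adjusted p under 0.05 and a 2-fold difference, and the 13 called ones ran from a 1.18-fold to a 1.63-fold difference. Of the called members, Wnt3, Wnt5a, Ror2, Sfrp1 and Dkk2 averaged under 6.43 over all arrays, the median of all probe sets.

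**Figure D1:**
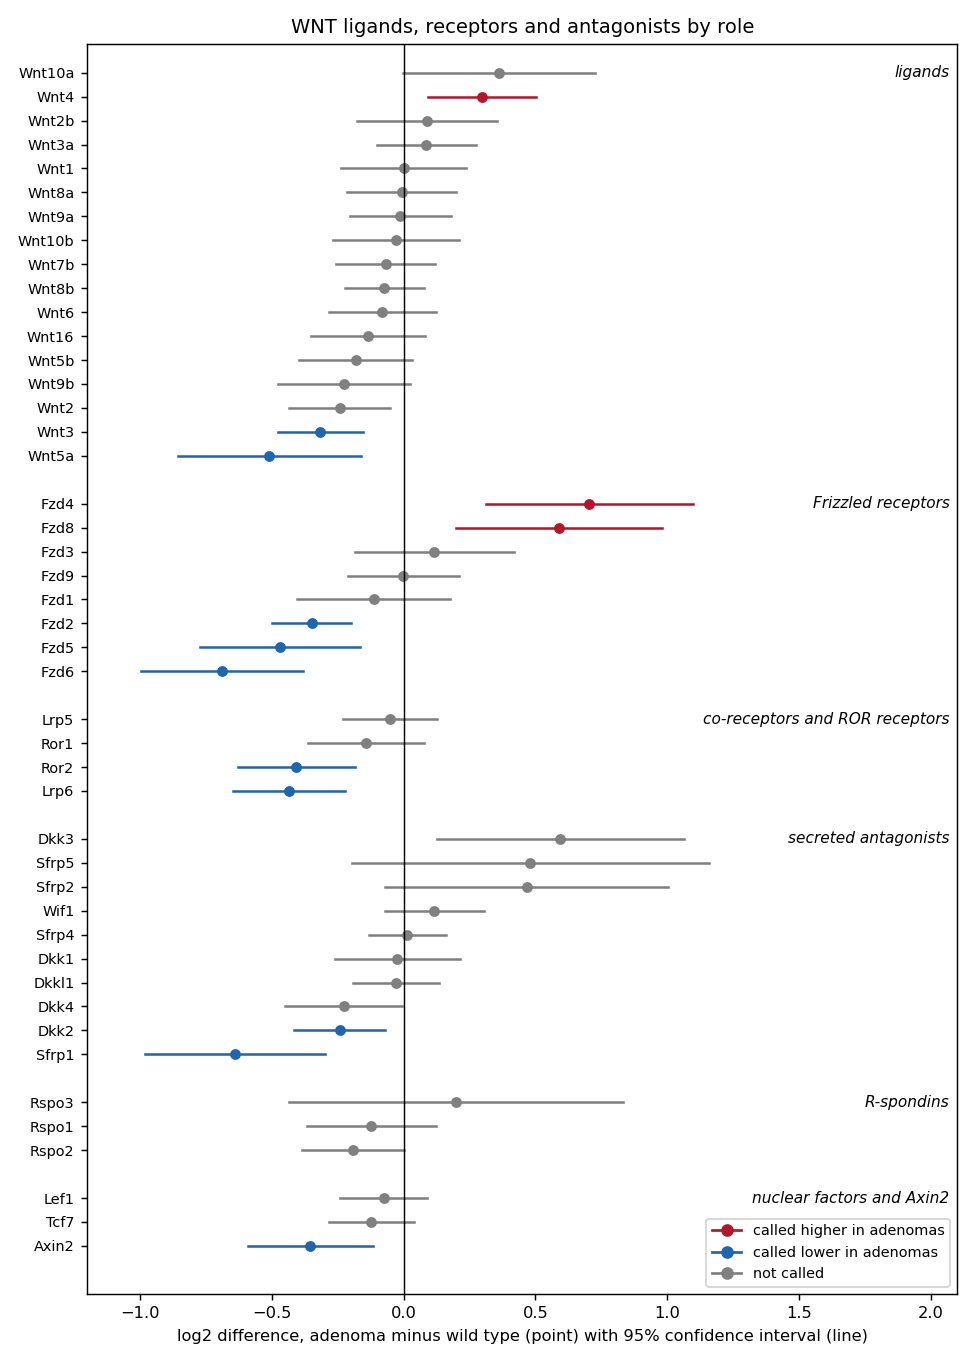
The log2 difference of each member, adenoma minus wild type (x axis), is drawn as a point with its 95% confidence interval as a line, grouped by role and sorted by size within each role, in red and blue where the member was called. Called points lie on both sides of 0 among the Frizzled receptors, from -0.69 for Fzd6 to 0.70 for Fzd4, and on the lower side alone among the co-receptors and the antagonists.

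Markers of other cells moved between the same groups of samples. The macrophage list had 8 of 12 measured genes higher and none lower (summed linear signal 1650 to 3200 in adenomas and 1110 to 1760 in wild types), and the pericyte, fibroblast and matrix list had 6 higher and 2 lower of 13 (3420 to 5940 in adenomas and 2820 to 4330 in wild types). The folliculostellate and stem cell list had 4 of 9 lower and none higher (968 to 2170 in adenomas and 1370 to 3420 in wild types), and the somatotroph list had 5 of 5 lower (4610 to 18900 in adenomas and 19300 to 26600 in wild types). The gonadotroph list, that of the cell the adenomas mainly derive from, had 2 higher and 2 lower of 5, and the mitosis list had 8 of 8 higher. The corticotroph and melanotroph list had 4 of 5 lower, the thyrotroph list 1 of 3 and the lactotroph list 1 of 4, the posterior lobe glia list had 1 higher and 3 lower of 7, and the cartilage list had 2 of 4 higher. Array signals have no zero, so absence could not be read. The part of these cells in the WNT differences was not tested.

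Among the 17 ligands, Wnt4 was called higher and Wnt3 and Wnt5a lower, and the other 14 ran between -0.24 (Wnt2) and 0.36 (Wnt10a) with adjusted p of 0.077 or more (limma). Wnt3 (10738707), a ligand that signals through beta-catenin, had a lowest, median and highest log2 value of 5.98, 6.18 and 6.39 in the adenomas, against 6.59, 6.54, 6.40, 6.47 and 6.43 in wild-type pituitaries 1 to 5. All 9 adenoma values lay below all wild-type values, a pattern found in 2.16% of all probe sets and in 2 members, Wnt3 and Fzd2. The opposite pattern, all adenomas above all wild types, was found in 2.66% of all probe sets and in 0 members. The difference was -0.32 (SE 0.076, limma, adjusted p = 0.0108), and it was -0.40 within samples whose number began with 08 and -0.25 within those beginning with 09. Over the 2 youngest adenomas it was -0.14 and not called (adjusted p = 0.82).

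Wnt5a (10786401), a ligand that acts mostly without beta-catenin, lay at 5.73, 6.12 and 6.81 in the adenomas (lowest, median, highest), against 6.49, 6.66, 6.70, 6.68 and 6.73 in the wild-type pituitaries. The wild types were close together while the adenomas spread widely, 6 of them below every wild type and 1 above (SD 0.38 in adenomas and 0.10 in wild types). The difference was -0.51 (SE 0.163, limma, adjusted p = 0.0423), with -0.39 within prefix 08 and -0.62 within prefix 09. The highest adenoma value was that of number 3, whose lesion replicate 05 read 7.52 where its sister lesions read 6.61 and 6.29. Without that lesion the difference was -0.55 (adjusted p = 0.0135). The call was lost without adenoma number 1, 2, 5, 7, 8 or 9 or wild-type pituitary 2, 3, 4 or 5, with differences between -0.59 and -0.46 over all 14 leave-outs and an adjusted p of at most 0.0933. It was also lost in the fit of single lesions (adjusted p = 0.0828), in the methods' t-test with Benjamini-Hochberg adjustment (0.0967), with arrays centred (0.0605) or quantile-normalized once more (0.0532), with array weights (0.109) and with sex as a covariate (0.0554).

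Wnt4 (10873021), a ligand best known for its part in the female reproductive tract and kidney, went the other way. Its adenoma values were 6.26, 6.64 and 6.82 (lowest, median, highest), against 6.24, 6.43, 6.28, 6.19 and 6.31 in the wild-type pituitaries. Of the 9 adenomas 7 lay above every wild type and the other 2 lay within the wild-type range. The difference was 0.30 (SE 0.0962, limma, adjusted p = 0.0437), with 0.24 within prefix 08 and 0.34 within prefix 09, and 0.29 without lesion replicate 05 (adjusted p = 0.0508). The call was lost without adenoma number 1, 2, 3, 5, 7 or 9 or wild-type pituitary 1, 3, 4 or 5 (0.27 to 0.34 over all leave-outs, adjusted p at most 0.112), and with array weights (adjusted p = 0.0696).

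The Frizzled receptors held the largest differences of the family, in both directions. They were also brighter, with 7 of 8 averaging above the median of all probe sets, against 6 of 17 ligands and 1 of 10 antagonists. Of 8 receptors 2 were called higher and 3 lower, and Fzd1, Fzd3 and Fzd9 were not called (-0.11, 0.12 and -0.00053, adjusted p of 0.6 or more, limma). Fzd4 (10708535), the receptor that also binds the non-WNT ligand norrin, had 6.91, 7.51 and 8.12 in the adenomas (lowest, median, highest), against 6.56, 7.00, 6.99, 6.67 and 6.69 in the wild-type pituitaries. All adenomas but number 6 lay above every wild type. The difference was 0.70 (SE 0.185, limma, adjusted p = 0.017), with 0.91 within prefix 08 and 0.46 within prefix 09, and it passed the threshold in each of the 14 leave-outs (0.62 to 0.78, adjusted p at most 0.0491). The endothelial list, of a cell type in which Fzd4 is known to act, had 3 genes higher and none lower of 11, with a summed linear signal of 1550 to 3010 in adenomas and 1670 to 2540 in wild types, and its part in the Fzd4 difference was not tested.

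Fzd8 (10795673), a receptor closely related to Fzd5, had 6.91, 7.45 and 8.30 in the adenomas (lowest, median, highest), against 7.09, 6.91, 6.97, 6.74 and 7.06 in the wild-type pituitaries. Of the 9 adenomas 8 lay above every wild type, and number 4, the youngest at 7 months, lay within their range. The difference was 0.59 (SE 0.183, limma, adjusted p = 0.0378), with 0.34 within prefix 08 and 0.88 within prefix 09. Lesion replicate 05 read 6.58 where its sister lesions read 7.45 and 7.73, and without it the difference was 0.63 (adjusted p = 0.0244). The call was lost without adenoma number 1, 5, 7 or 9 or wild-type pituitary 2, 3, 4 or 5 (0.50 to 0.67 over all leave-outs, adjusted p at most 0.105), and with array weights (adjusted p = 0.0829).

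Fzd6 (10896256), a receptor needed in mice for the orientation of hair, showed the largest fall in the family. It had 7.31, 7.61 and 8.26 in the adenomas (lowest, median, highest), against 8.36, 8.65, 8.26, 8.45 and 8.18 in the wild-type pituitaries. Of the 9 adenomas 8 lay below every wild type, and number 6, aged 8 months, overlapped them. The difference was -0.69 (SE 0.145, limma, adjusted p = 0.00503), with -0.91 within prefix 08 and -0.49 within prefix 09, and it was called in every leave-out (-0.76 to -0.62, adjusted p at most 0.0169).

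Fzd2 (10738591), a receptor for ligands of both branches including WNT5A, had the most uniform adenoma values of the called members. They were 6.75, 6.91 and 7.00 (lowest, median, highest), against 7.19, 7.18, 7.16, 7.47 and 7.10 in the wild-type pituitaries, with an SD of 0.08 in the adenomas and 0.14 in the wild types. The groups did not overlap. The difference was -0.35 (SE 0.0707, limma, adjusted p = 0.004), with -0.35 within prefix 08 and -0.33 within prefix 09, and it was called in every leave-out (-0.38 to -0.29, adjusted p at most 0.0106).

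Fzd5 (10928533), the near relative of Fzd8, fell where Fzd8 rose. Its adenoma values were 7.01, 7.12 and 7.53 (lowest, median, highest), against 7.16, 8.23, 7.61, 7.79 and 7.38 in the wild-type pituitaries. Here the wild types spread more widely (SD 0.41) than the adenomas (SD 0.16), and 6 adenomas lay below every wild type. The difference was -0.47 (SE 0.143, limma, adjusted p = 0.0346), with -0.59 within prefix 08 and -0.35 within prefix 09. The call was lost without adenoma number 1, 2, 3, 5, 8 or 9 or wild-type pituitary 2, 3 or 4 (-0.59 to -0.32 over all leave-outs, adjusted p at most 0.0951), and with arrays centred on their medians (adjusted p = 0.051).

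**Figure D2:**
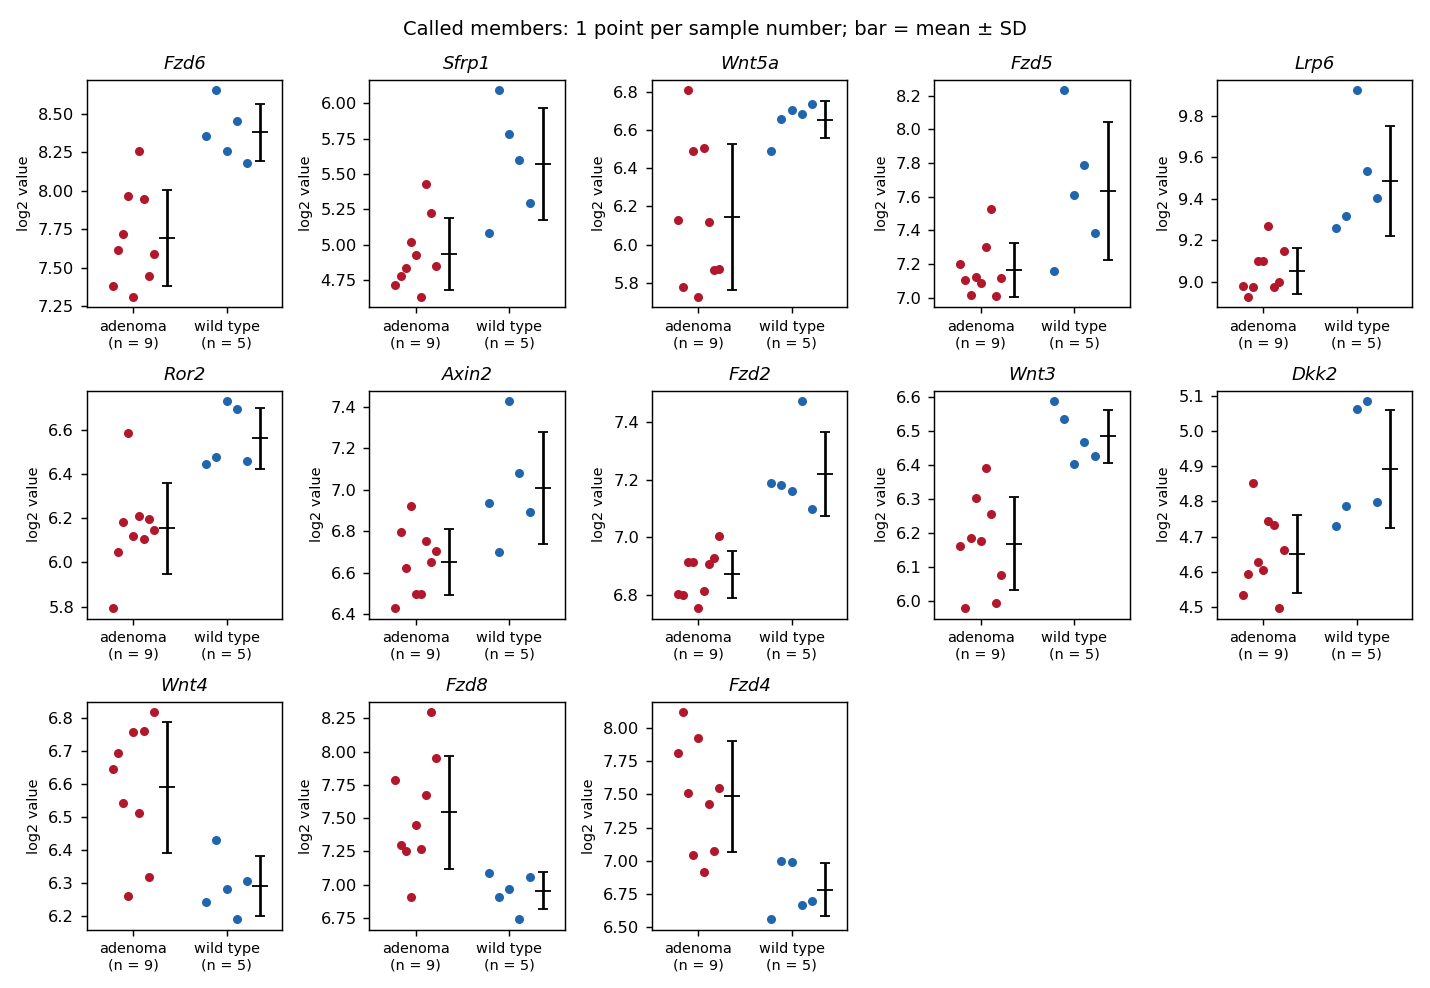
Each panel shows 1 called member with its log2 values (y axis, 1 point per sample number) in the 9 adenomas in red and the 5 wild-type pituitaries in blue, and a black bar for the mean ± SD of each group. Fzd2 and Wnt3 have no overlap between the groups, while in Wnt5a 1 adenoma lies above all the wild types.

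Of the co-receptors and ROR receptors, Lrp6 and Ror2 fell and their closest relatives Lrp5 and Ror1 did not pass the test (-0.05 and -0.14, adjusted p of 0.714 and 0.362, limma). Lrp6 (10866374), the co-receptor that carries WNT signals to beta-catenin, had 8.93, 9.00 and 9.27 in the adenomas (lowest, median, highest), against 9.26, 9.32, 9.93, 9.54 and 9.40 in the wild-type pituitaries. All adenomas but number 6 lay below every wild type. The difference was -0.44 (SE 0.0997, limma, adjusted p = 0.00807), with -0.27 within prefix 08 and -0.52 within prefix 09, and it was called in every leave-out (-0.49 to -0.33, adjusted p at most 0.0242).

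Ror2 (10797499), a receptor tyrosine kinase that binds WNT5A, had 5.79, 6.15 and 6.59 in the adenomas (lowest, median, highest), against 6.44, 6.48, 6.73, 6.69 and 6.46 in the wild-type pituitaries. Of the 9 adenomas 8 lay below every wild type, and number 4, the youngest, read 6.59, within their range. The difference was -0.41 (SE 0.103, limma, adjusted p = 0.0146), with -0.31 within prefix 08 and -0.46 within prefix 09, and it was called in every leave-out (-0.46 to -0.36, adjusted p at most 0.0469). Ror2 and its ligand Wnt5a were both called lower, over the same samples, but the Wnt5a call was lost in 10 of 14 leave-outs. Of other receptors for WNT5A named here, Fzd2 was called lower and Ryk higher.

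Of the 10 secreted antagonists, Sfrp1 and Dkk2 fell, and the other 8 ran from -0.23 (Dkk4) to 0.59 (Dkk3) without passing the test. Sfrp1 (10792344), which binds WNT ligands outside the cell, had 4.63, 4.85 and 5.43 in the adenomas (lowest, median, highest), against 5.08, 6.09, 5.78, 5.60 and 5.30 in the wild-type pituitaries. Of the 9 adenomas 7 lay below every wild type. The mean of Sfrp1 over all arrays was 5.05, under the median of 6.43 over all probe sets. The difference was -0.64 (SE 0.16, limma, adjusted p = 0.0137), with -0.73 within prefix 08 and -0.53 within prefix 09, and it was called in every leave-out (-0.76 to -0.51, adjusted p at most 0.0422).

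Dkk2 (10819074), which binds the LRP co-receptors, had 4.50, 4.63 and 4.85 in the adenomas (lowest, median, highest), against 4.73, 4.79, 5.06, 5.08 and 4.80 in the wild-type pituitaries. The groups overlapped, with 6 adenomas below every wild type. The difference of -0.24 was the smallest of those called (SE 0.0807, limma, adjusted p = 0.0498), and it was -0.12 within prefix 08 and -0.32 within prefix 09. It was not called without lesion replicate 05 (-0.23, adjusted p = 0.0751), nor without adenoma number 1, 2, 4, 5, 7, 8 or 9 or wild-type pituitary 3, 4 or 5 (-0.28 to -0.19 over all leave-outs, adjusted p at most 0.144). Nor was it called in the fit of single lesions (adjusted p = 0.15), in the methods' t-test with Benjamini-Hochberg adjustment (0.0956), in a fit blocked on the number prefix (0.0561), with arrays centred (0.0931) or quantile-normalized once more (0.154), or with array weights (0.0739).

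Dkk3 (10724967), a Dickkopf relative whose place in WNT signalling is less settled, had the largest difference among the members that were not called. Its adenoma values were 5.86, 6.37 and 7.44 (lowest, median, highest), against 6.03, 5.80, 5.67, 6.16 and 5.89 in the wild-type pituitaries. Of the 9 adenomas 6 lay above every wild type, and numbers 7, 8 and 9, the 12-month rats of prefix 09, were the highest at 7.44, 6.94 and 6.94. The difference was 0.59 (SE 0.22, limma, adjusted p = 0.0746), with 0.32 within prefix 08 and 0.94 within prefix 09. It passed the threshold without adenoma number 4 (adjusted p = 0.0398), in a fit blocked on the number prefix (0.0328), in the fit of single lesions (0.0364) and after a second quantile normalization (0.0499), and over the 2 youngest adenomas the difference was 0.047 (adjusted p = 0.96).

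Among the remaining antagonists and the R-spondins, Sfrp5 and Rspo3 varied widely from adenoma to adenoma. Sfrp5 had 6.68, 7.06 and 8.75 in the adenomas (lowest, median, highest), against 6.71, 6.61, 6.42, 7.45 and 6.88 in the wild-type pituitaries. Numbers 7, 8 and 9 were again the highest, and the difference of 0.48 was smaller than the adenoma SD of 0.73 (adjusted p = 0.313, limma). Rspo3, an R-spondin, had 4.76, 5.46 and 6.99 in the adenomas, against 4.88, 5.11, 5.38, 5.51 and 5.29 in the wild-type pituitaries, with 4 adenomas above and 3 below every wild type. The 3 R-spondins had no call (-0.19 to 0.20, adjusted p of 0.154 or more). Sfrp5 and Rspo3 were chosen for description after their values were seen.

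Axin2 (10739302), the scaffold protein of the complex that destroys beta-catenin and itself a target of the pathway, had 6.43, 6.65 and 6.92 in the adenomas (lowest, median, highest), against 6.94, 6.70, 7.43, 7.08 and 6.89 in the wild-type pituitaries. The groups overlapped, with 5 adenomas below every wild type. The difference was -0.35 (SE 0.111, limma, adjusted p = 0.0394), with -0.16 within prefix 08 and -0.48 within prefix 09. The call was lost with arrays centred on their medians (-0.31, adjusted p = 0.0686), and without adenoma number 1, 3, 5, 6, 8 or 9 or wild-type pituitary 3, 4 or 5 (-0.43 to -0.25 over all leave-outs, adjusted p at most 0.108).

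Lef1 and Tcf7, the DNA-binding partners of beta-catenin, did not pass the test. Both averaged under the median of 6.43 over all probe sets (5.52 and 5.44 over all arrays). Lef1 (10819052) had 5.33, 5.51 and 5.66 in the adenomas (lowest, median, highest), against 5.72, 5.71, 5.40, 5.44 and 5.64 in the wild-type pituitaries, a difference of -0.08 (95% interval -0.24 to 0.09, adjusted p = 0.537, limma) that changed sign with a second quantile normalization (0.0028). Tcf7 (10742555) had 5.25, 5.43 and 5.52 in the adenomas, against 5.42, 5.40, 5.45, 5.59 and 5.81 in the wild-type pituitaries, a difference of -0.12 (95% interval -0.28 to 0.04, adjusted p = 0.283).

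The number in each sample label began with 08 (5 adenomas and 2 wild types) or 09 (4 and 3), and what that prefix marks is not stated in the labels. All 4 adenomas of prefix 09 were female, and all 3 male adenomas were of prefix 08. The parts of sex and prefix could thus not be fully told apart among the adenomas. The 13 called differences kept their sign within both prefixes. They were called over these same samples together, so a shared sign within the parts is no separate support. No member was called within prefix 08 alone, where 708 probe sets were called in all. At an unadjusted p under 0.05 (limma) 2 members were higher and 7 lower there, 20% of the members against 19.3% of all probe sets. Within prefix 09 alone 1 was called higher (Fzd8, adjusted p = 0.0361) and 3 lower (Lrp6, Ror2 and Wnt5a, adjusted p = 0.0476, 0.0255 and 0.0395). The counts within prefix 09 stand without the share of all probe sets and are not set against those of prefix 08. With the prefix as a block Dkk2 lost its call and Dkk3 gained one. Whether any difference was larger in one prefix than in the other was not tested.

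**Figure D3:**
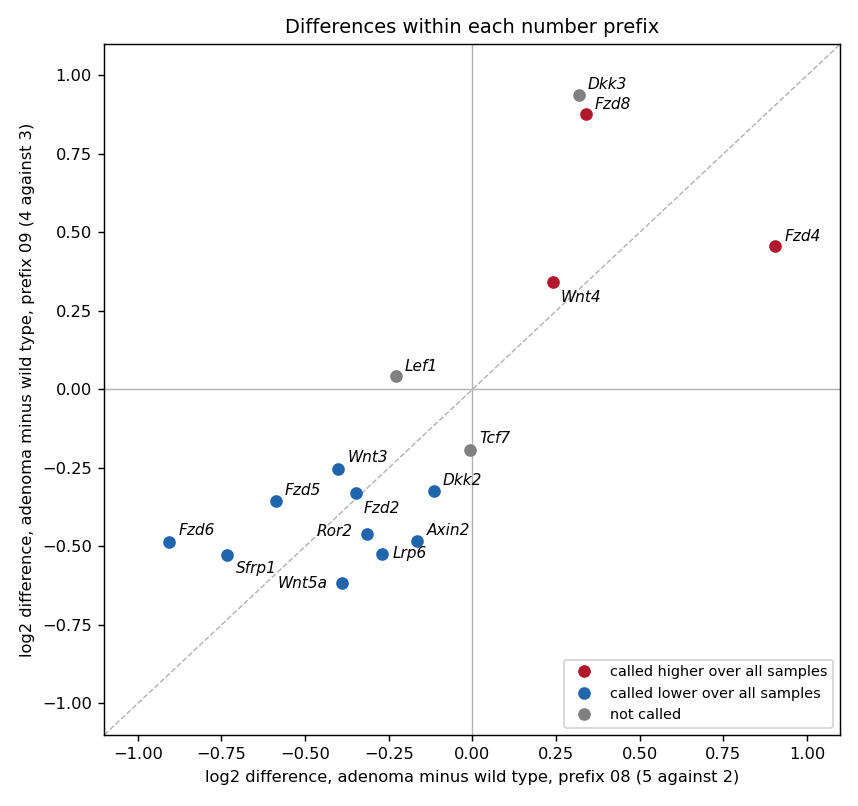
The log2 difference of the 13 called members and of Dkk3, Lef1 and Tcf7, adenoma minus wild type, is plotted for samples of prefix 08 (x axis, 5 adenomas against 2 wild types) and prefix 09 (y axis, 4 against 3), with a dashed line where both are equal. All called members lie in the quadrant of their overall sign, and Lef1 lies at -0.23 and 0.04. The calls were made over both prefixes together.

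Lesions of 1 rat could be compared in 5 of the 9 adenoma numbers, 3 with 2 lesions and 2 with 3. For Dkk3, Sfrp5 and Rspo3 the spread between lesions of a number was well under the spread among numbers (SD of 0.164 against 0.513, 0.265 against 0.725, and 0.311 against 0.706). For Wnt5a both were alike (0.384 and 0.38), and for Fzd2 and Dkk2 lesions of a number differed more than the averaged numbers did (0.175 against 0.0812, and 0.245 against 0.111). The widest gap inside a number was 1.23 for Wnt5a and 1.15 for Fzd8, both in number 3 and both involving lesion replicate 05.

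**Figure D4:**
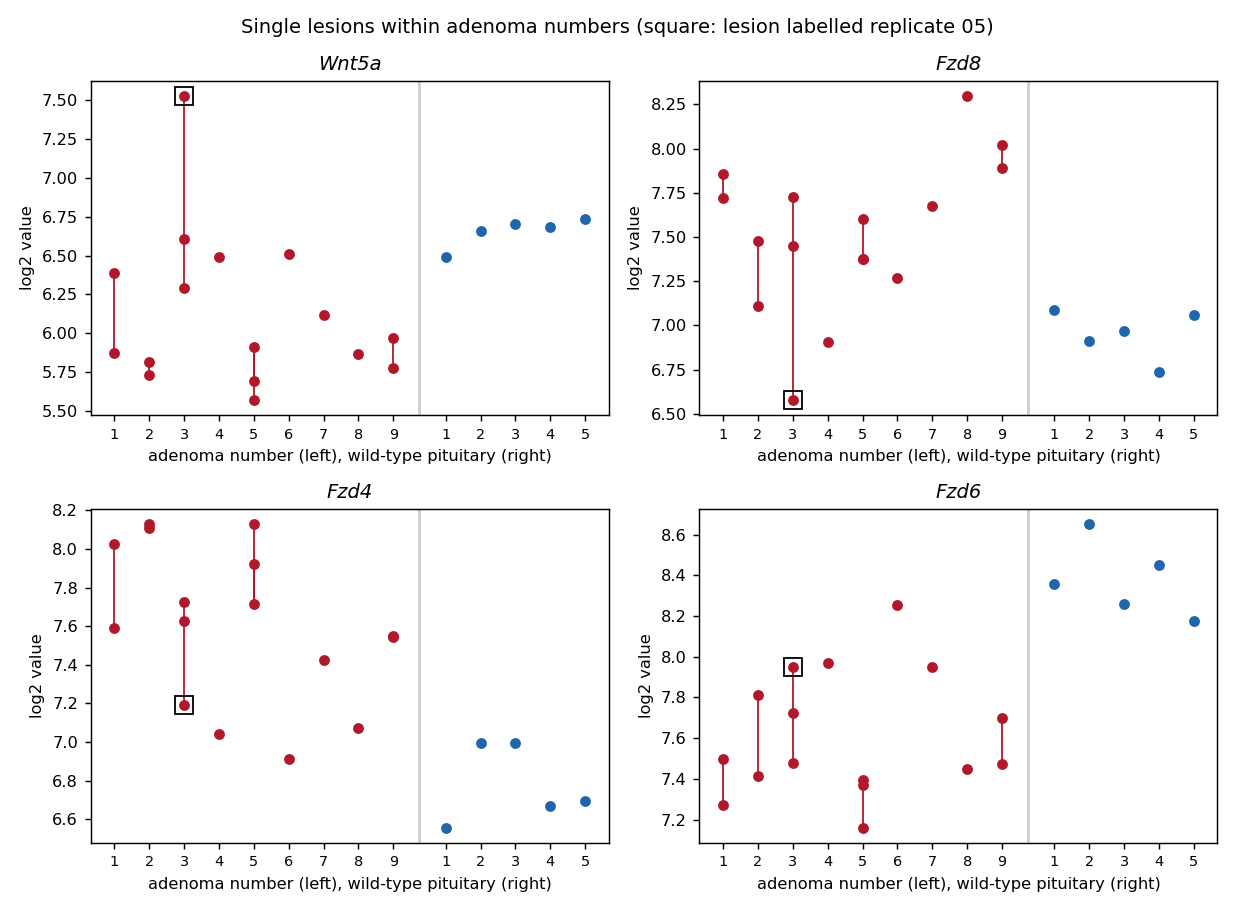
Single lesions are drawn as red points over their adenoma number (1 to 9) and wild-type pituitaries (1 to 5) as blue points, with log2 values on the y axis, a line joining lesions of a number and a square around the lesion labelled replicate 05. That lesion is the highest for Wnt5a at 7.52 and the lowest for Fzd8 at 6.58, while for Fzd6 and Fzd4 it lies nearer its sister lesions.

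Age ran from 7 to 12 months among the adenomas, and no member had a slope with age at an adjusted p under 0.05 (limma, lowest adjusted p = 0.195; 0.00342% of all probe sets passed). At an unadjusted p under 0.05 there were 9 members, 20% against 11.8% of all probe sets, and these were named after their values were seen. Fzd8, Dkk3 and Sfrp5 (3 members, with 4.51% of all probe sets on that side) had positive slopes of 0.182, 0.194 and 0.259 log2 units per month (unadjusted p = 0.00277, 0.012 and 0.0191, limma). Fzd6, Wnt5a, Rspo1, Wnt16, Wnt7b and Dkk1 (6 members, with 7.25% of all probe sets) had negative slopes, the steepest being -0.133 for Wnt5a and -0.114 for Fzd6 (unadjusted p = 0.0252 and 0.0204, limma). With the prefix as a term Fzd8 had a slope of 0.158 and Fzd6 of -0.142 (adjusted p = 0.127 and 0.0956), and all 9 slopes kept their sign within each prefix. In Dkk3 and Sfrp5 the slope was 0.0673 and 0.0594 within prefix 08, against 0.263 and 0.373 within prefix 09, whose adenomas were of 8 or 12 months only. There number 6 alone was of 8 months, so each slope within prefix 09, and its sign, rests on that rat against the others. Within prefix 08 number 4, of 7 months, was the only adenoma-bearing rat younger than 10 months. The slopes within prefix 08 thus lean on number 4, and those over all adenomas on numbers 4 and 6.

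Over the 2 adenomas of 7 and 8 months alone, the differences from the wild types were 0.13 for Fzd8, 0.20 for Fzd4, 0.096 for Wnt4, -0.14 for Wnt3, -0.15 for Wnt5a, -0.16 for Ror2 and -0.27 for Fzd6, and none was called (adjusted p of 0.736 or more, limma). Fzd2 and Sfrp1 were at -0.36 and -0.75 there, close to or beyond their values over all adenomas, and not called either (adjusted p = 0.546 and 0.473). The remaining called members, Fzd5, Axin2, Dkk2 and Lrp6, also stayed lower there without a call. Adenoma numbers 4 and 6 read 7.12 and 7.30 for Fzd5 and 6.92 and 6.50 for Axin2. They read 4.63 and 4.75 for Dkk2 and 9.10 and 9.27 for Lrp6. The means of these genes over all adenomas were 7.16, 6.65, 4.65 and 9.05, against 7.63, 7.01, 4.89 and 9.49 in wild types. With 2 adenomas, 133 probe sets were called in all, and 2 members were lower and 0 higher at an unadjusted p under 0.05, 4.44% of the members against 8.29% of all probe sets.

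**Figure D5:**
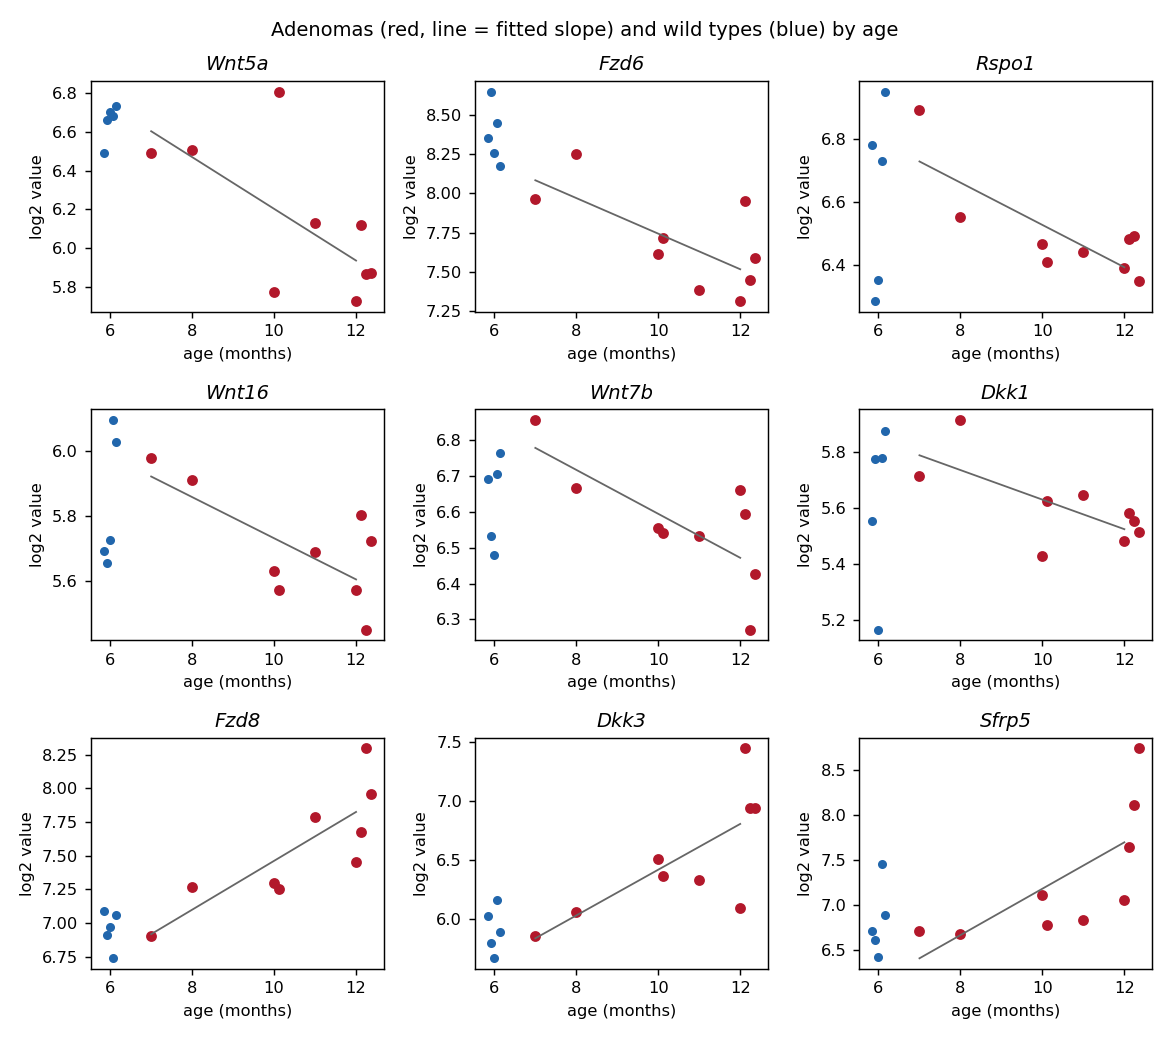
Log2 values (y axis) are plotted against age in months (x axis) for the 9 members with an unadjusted age p under 0.05, with wild types in blue at 6 months, adenomas in red, points of the same age moved slightly apart, and the fitted slope over the adenomas as a line. Fzd8, Dkk3 and Sfrp5 climb with age and the other 6 decline, and no slope passed the adjusted threshold.

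The difference between adenoma and wild type did not depend on sex for any member at an adjusted p under 0.05 (limma interaction, lowest adjusted p = 0.508, and 0% of all probe sets passed). At an unadjusted p under 0.05 there were 2 members, 4.44% against 6.78% of all probe sets. Fzd5 differed by -0.81 in males and -0.06 in females (unadjusted p = 0.00544, limma), and Sfrp1 by -0.98 in males and -0.21 in females (unadjusted p = 0.0139). In both genes the highest wild-type value was that of pituitary 2, a male (8.23 and 6.09). With sex as a covariate Fzd5, Fzd8, Axin2, Wnt5a and Dkk2 missed the threshold (adjusted p = 0.0569, 0.0621, 0.0591, 0.0554 and 0.0814).

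Beyond the family, 125 further WNT pathway genes were listed and 97 were measured. Of these 11 were higher (11.3%, against 8.49% of all probe sets) and 13 lower (13.4%, against 9.06%), where the probe sets with a single symbol had 12% higher and 9.63% lower, with a median difference of -0.03. Single genes of these lists were not followed through the leave-outs. The genes for making and releasing WNT ligands and shaping them outside the cell had 2 higher and 2 lower of 11. Wls, the carrier that brings WNT ligands to the surface, averaged 8.31 ± 0.39 in the adenomas and 9.11 ± 0.62 in wild-type pituitaries (SD, n = 9 and 5, difference -0.80, adjusted p = 0.0323, limma). Ndp, which encodes norrin, the ligand of Fzd4, averaged 5.49 ± 0.27 in the adenomas and 4.94 ± 0.29 in wild types (difference 0.55, adjusted p = 0.0181). Frzb, a further secreted Frizzled-related antagonist, was higher by 0.41 (adjusted p = 0.00457), and Gpc3, a glypican on the cell surface, was lower by 1.33, although only 2 adenomas lay below every wild type, where the SD was 1.07 in wild types and 0.13 in adenomas.

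Other receptors and turnover factors had 2 higher and 1 lower of 10. Ryk, a WNT5A receptor without kinase activity, and Reck, a partner of WNT7 receptors, were higher by 0.30 and 0.50 (adjusted p = 0.0497 and 0.0422, limma), and Kremen1, which helps DKK proteins remove LRP6, averaged 6.17 ± 0.09 in the adenomas and 6.95 ± 0.59 in wild types (difference -0.77, adjusted p = 0.00849). Ryk and Reck each had 5 adenomas above every wild type. In the destruction complex and Dishevelled group 2 rose and 1 fell of 23. Tnks, the tankyrase that marks Axin for breakdown, had all 9 adenomas below every wild type (8.70 ± 0.25 in adenomas and 9.41 ± 0.13 in wild types, difference -0.70, adjusted p = 0.00121), and Nkd1, a feedback inhibitor, was higher by 0.39 (adjusted p = 0.0474).

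Among beta-catenin and its nuclear partners 2 were higher and 4 lower of 15. Beta-catenin itself (Ctnnb1) did not pass the test (-0.09, adjusted p = 0.483, limma). The co-activators Ep300 and Crebbp were lower by 0.67 and 0.46 (adjusted p = 0.0123 and 0.0389), and so were the Groucho co-repressors Tle3 and Tle4, at -0.55 and -0.63 (adjusted p = 0.0122 and 0.049), while the short family member Tle5 was higher by 0.42 (adjusted p = 0.0109). The planar polarity and calcium branch had 2 higher and 4 lower of 23. There, Vangl1, a core polarity protein, was at 7.70 ± 0.56 in the adenomas and 6.64 ± 0.36 in wild types (difference 1.05, adjusted p = 0.0107), and Prickle2, its partner, at 8.01 ± 0.26 in the adenomas and 8.84 ± 0.35 in wild types (difference -0.83, adjusted p = 0.00215).

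The list of beta-catenin target genes does not hold every known target. Of its 15 measured genes, 1 was higher and 1 lower, with a median difference of 0.02. Axin2 and the feedback inhibitor Nkd1 stood outside this list and were called in opposite directions (-0.35 and 0.39). Both calls lay near the threshold (adjusted p = 0.0394 and 0.0474, limma). For Nkd1 only 3 adenomas lay above every wild type, and the Axin2 call was lost in 9 of 14 leave-outs. Id2, an inhibitor of basic helix-loop-helix factors, averaged 7.53 ± 0.73 in the adenomas and 6.31 ± 0.15 in wild-type pituitaries (difference 1.22, adjusted p = 0.0126, limma), with all 9 adenomas above every wild type. Nrcam, a cell adhesion molecule, was lower by 0.80 (adjusted p = 0.015). Myc and Ccnd1, the targets best known for growth, differed by 0.67 and 0.22 and did not pass the test (adjusted p = 0.194 and 0.45).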

How the data were processed

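RNA of 16 pituitary lesions and 5 normal pituitaries was hybridised to 1 array each (Affymetrix, Rat Gene 1.0 ST). The deposited log2 values are gene-level RMA values that the authors computed with Affymetrix Expression Console, whose steps are background correction, sketch-quantile normalization and median polish (program versions not given in the sources used here). RMA shrinks differences of dim genes, and quantile normalization can hide a shift of most genes. The number of arrays limits the precision.

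Lesions sharing a sample number, read as 1 rat, were averaged, which gave 9 adenoma values. The study's text describes more rats and a narrower, mostly younger range of ages, and the labels were followed in both. limma 3.58.1 in R 4.3.3 fitted the group for each of 29214 probe sets (12 residual and 3.212 prior degrees of freedom), with Benjamini-Hochberg adjustment over all of them. Symbols came from the platform annotation, where 15310 probe sets had 1 symbol, 323 several and 13581 none. The fit was tested on simulated data. Sex was tested as an interaction, and age as a slope over the adenomas. The members and lists were chosen with earlier results of these data known. Named with their values were the called members, Axin2, Lef1 and Tcf7, and members not called with a log2 difference of 0.5 or more in size, and of other pathway genes up to 4 called ones per list. Tle5 was named beyond those 4 in its list. Ctnnb1, Myc and Ccnd1, and members named for age, sex or spread, were added after their values were seen.

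The alternatives were a fit of single lesions (random block for the number), the methods' t-test, the number prefix as a block or 1 prefix at a time, sex as a further term, the 2 adenomas of 7 and 8 months, a filter that dropped probe sets averaging under the table's median of 6.43 (18 members exceed it), median centring, a second quantile normalization, array weights, a robust fit with a variance trend, the replicate block, other thresholds, and each adenoma number or wild-type pituitary left out in turn. Leaving out lesion replicate 05 and a prefix term beside the age slope were chosen after seeing the data. The lesion numbered 13 was not analysed here. Nothing in the labels describes the rats' relatedness. The main p-values weigh a difference against the spread between sample numbers, which were taken as independent.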

Additional observations from a re-analysis of the deposited data

Results flagged for a closer look

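Of 32 groups of values tested for a sample apart from the others (16 named members in 2 groups), 1 stood out, where chance gives about 1 in 20. For Fzd2, wild-type pituitary 4 read 7.47, against 7.19 for the nearest and 7.10 for the lowest of the other wild types, so that the gap took 0.758 of the range. Without that pituitary Fzd2 was still called lower in the adenomas, as in each of the 14 leave-outs. None of the 16 differences between the sexes passed the adjusted threshold.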

How the results depend on the processing

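Over 16 named members and all alternatives, 313 of 440 values kept their sign and their side of the threshold, 119 lost the call, 5 gained it (all Dkk3) and 3 changed sign. The sign changes were all of Lef1, which was 0.041 within prefix 09, 0.029 over adenomas of 7 or 8 months and 0.0028 after a second quantile normalization. Fzd2, Fzd4, Fzd6, Lrp6, Ror2, Sfrp1 and Wnt3 stayed called in every leave-out. The causes of the shifts were not tested, except that fewer samples entered where a prefix or the younger adenomas stood alone.

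Members called higher and lower were 0 and 0 within prefix 08, 1 and 3 within prefix 09, 0 and 0 over adenomas of 7 or 8 months, 0 and 0 past 2-fold, and 0 and 3 at an adjusted p under 0.01 by limma (at an unadjusted p under 0.05, 2 and 7 within prefix 08, 20% of members against 19.3% of all probe sets, and 0 and 2 over the younger adenomas, 4.44% against 8.29%). Lower members numbered 5 without dim probe sets (fewer members tested) and 6 with centring, and 1 was higher with array weights. Counts without a share of all probe sets beside them are not compared between settings. The median was -0.014 after a second quantile normalization. Leaving out 1 number or pituitary gave 1 to 4 higher and 6 to 10 lower members, with medians from -0.11 to -0.04, and 0 age slopes and 0 sex differences each time, as did the other settings tried for them.

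The other pathway genes called higher and lower were 1 and 2 within prefix 08, 6 and 8 within prefix 09, and 0 and 1 over the younger adenomas. Their higher count was 7 without dim probe sets, 7 with array weights, and 7 to 10 with 1 sample number left out, when 9 to 15 were lower. The replicate numbers in the labels did not pair the samples (correlations of deviations -0.0531 to 0.203 over 5 shared numbers). With the replicate block 5 members were lower and 5 pathway genes higher, and Dkk3 was called (adjusted p = 0.0363). The counts in this paragraph stand without the shares of all probe sets in the same settings.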
